A study of Mus musculus with 24 samples.

Results

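Iron handling in macrophages was described through 10 genes, taken by symbol: Tfrc, Steap3, Slc11a2 and Slc11a1 for iron uptake and transport, Fth1 and Ftl1 for storage, Ncoa4 for the turnover of stored iron, Slc40a1 for export, and Aco1 and Ireb2 for regulation. Each symbol was matched to 1 of the 56884 genes in the table of gene counts, and all 10 were among the 13679 genes with enough reads to be tested. The genes were chosen by their known roles and not by a measured value of these libraries, but earlier results of these data were known when they were chosen.

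The libraries were poly(A) RNA-seq of bone marrow-derived macrophages (BMDM), which are cultured from wild-type C57BL/6J mouse bone marrow in the growth factor M-CSF. The study's methods give 9-week-old female mice, and each of 4 mice (numbered 1, 2, 4 and 5) gave 1 library in each of 6 groups, 24 libraries in all. The design asks how blocking the mitochondrial ATP synthase, or inducing the integrated stress response (ISR) by other agents, alters the macrophage response to the type 2 cytokines IL-4 and IL-13.

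Naive BMDM received nothing for 24 h. The IL-4/IL-13 group received 20 ng/ml of each cytokine for 24 h, and all 4 inhibitor groups received the same cytokines after 1 h with the inhibitor, which then stayed in the medium. Tunicamycin, which blocks N-linked glycosylation in the endoplasmic reticulum, was used at 5 µg/ml, and Sal003, which inhibits dephosphorylation of the translation factor eIF2α, at 10 µM. Oligomycin, an inhibitor of the ATP synthase, was used at 1 µM in 2 groups, and 1 of these also held 1 µM ISRIB, a compound that counters the effect of eIF2α phosphorylation. The sample titles and the library names give opposite answers to which of the 2 groups held ISRIB, so they are called here oligomycin set A, whose titles and treatment labels name ISRIB while its library names do not, and oligomycin set B, for which the reverse holds. Neither reading was chosen. No inhibitor was given without the cytokines, so an inhibitor alone was not measured, and every inhibitor group was compared with the same 4 IL-4/IL-13 libraries.

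Cells take up transferrin-bound iron through the transferrin receptor, reduce it in endosomes and move it into the cytosol through a divalent metal transporter. Iron that is not used is stored in ferritin, a shell built of heavy and light chains, and is released when the cargo receptor NCOA4 delivers ferritin to lysosomes. Ferroportin is the known exporter of iron from the cell, and macrophages that clear old red cells return most of the iron the body uses through it. A pair of iron regulatory proteins, encoded by Aco1 and Ireb2, bind RNA hairpins called iron-responsive elements (IREs) when iron is scarce: bound to a 5′ untranslated region (UTR) they block translation, and bound to the 3′ UTR of the transferrin receptor RNA they slow its decay. Type 2 cytokines and inflammatory signals are both known to alter these genes in macrophages.

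The IREs of 4 of the 10 genes are shown because they are the sequence that ties storage, export and uptake to the same pair of regulators. They were found in annotated UTRs of GRCm39 (GENCODE vM39) as a C, any 5 bases, CAGTG and any base, followed by 5 bases that pair with those before the loop, with G-T pairs allowed, on the sense strand only. Each is printed 5′ to 3′ as DNA, 29 bases long, with the bulged C and the 6 loop bases in capitals. The rule misses any element with a mismatch or an extra base in the 5 pairs next to the loop. The other genes may therefore hold an element, and the 4 genes shown may hold more than are printed. Fth1 (chr19:9960096-9960124, + strand), Ftl1 (chr7:45109203-45109231, - strand) and Slc40a1 (chr1:45964625-45964653, - strand) held 1 element each in the 5′ UTR. Tfrc held 4 in its 3′ UTR, all on the + strand, at chr16:32450037-32450065, chr16:32450416-32450444, chr16:32450481-32450509 and chr16:32450528-32450556.
Fth1 5′ UTR: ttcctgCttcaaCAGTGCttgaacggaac
Ftl1 5′ UTR: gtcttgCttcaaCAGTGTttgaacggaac
Slc40a1 5′ UTR: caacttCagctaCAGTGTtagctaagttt
Tfrc 3′ UTR, element 1: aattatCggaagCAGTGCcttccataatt
Tfrc 3′ UTR, element 2: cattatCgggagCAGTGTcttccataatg
Tfrc 3′ UTR, element 3: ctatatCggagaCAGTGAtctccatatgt
Tfrc 3′ UTR, element 4: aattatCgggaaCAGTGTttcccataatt
By the same rule, 47 of 21254 protein-coding genes with an annotated 5′ UTR held an element there (0.221%), and 243 of 21713 held one in the 3′ UTR (1.12%). Among tested genes the shares were 0.285% for the 5′ UTR (34 of 11925) and 1.53% for the 3′ UTR (183 of 11955). A match is a description of letters, and the counts below measure RNA, not binding of the regulators, protein or iron.

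Each library held 16238727 to 26725278 reads on genes, with a median of 18999998. The naive library of mouse 2 stood apart from the other 3 naive libraries, at a root mean square log2 distance of 0.4 against 0.239 to 0.359 for the other 23 libraries from their own groups, so every pair of groups was also fitted without it, and its values are given beside a result where leaving it out changes a call, or where its level stands out. All 7 macrophage markers (Adgre1, Csf1r, Cd68, Itgam, Lyz2, Mertk and Fcgr1) were above 3 counts in every group, with summed levels of 30582 to 36302 CPM (read counts scaled to a common library size) in naive libraries, 11370 to 13771 with IL-4/IL-13, 16073 to 17650 with tunicamycin, 13797 to 15519 under Sal003, 8721 to 9537 in oligomycin set A and, for set B, 13405 to 15299. Of 8 erythroid markers, the 4 globin genes and Alas2 were at or under 3 counts in every library, and the 8 summed to at most 1.88 CPM. The 7 neutrophil markers, Ly6g excepted at or under 3 counts throughout, summed to 40.2 to 76.2 CPM in naive libraries, 23.7 to 43.6 with IL-4/IL-13, 0.103 to 0.286 with tunicamycin, 5.09 to 8.39 in Sal003, 2.73 to 4.71 in set A and, for set B, 18.8 to 24.7. The 5 fibroblast markers were all above 3 counts in every group and summed to 18.4 to 139 CPM in naive, 15.3 to 86.9 in IL-4/IL-13, 3.57 to 24.6 in tunicamycin, 7.77 to 48.1 in Sal003, 5.596 to 54.9 in set A and, for set B, 7.98 to 53.3. T-cell markers (5 genes, Cd3e, Cd3g and Cd8a at or under 3 counts throughout) stayed at or under 13.7 CPM summed, and B-cell markers (4 genes) at or under 3.24. The part of these marker levels in the results below was not tested.

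Against naive BMDM, IL-4/IL-13 raised the transferrin receptor RNA 10.3-fold and lowered the ferroportin RNA 6.17-fold, while the ferritin heavy chain fell and the light chain did not pass the test. At an adjusted p under 0.05 in edgeR's quasi-likelihood test (Benjamini-Hochberg adjustment over the 13679 genes), 3 of 10 genes rose (Tfrc, Steap3, Aco1), 5 fell (Slc11a2, Slc11a1, Fth1, Ncoa4, Slc40a1) and 2 did not pass (Ftl1, Ireb2), against 30.1% of all genes higher and 30.4% lower. Tfrc and Slc40a1 also passed 2.5-fold, the size the study used as its threshold, as did 11.5% of all genes. The median log2 change of the 10 genes was -0.31, and that of all genes -0.02.

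With tunicamycin on top of the cytokines, Tfrc and Steap3 fell to about their naive level or below, and RNA of the transporter genes Slc11a2 and Slc11a1 rose with that of Fth1. Against IL-4/IL-13 alone 3 of 10 genes rose (Slc11a2, Slc11a1, Fth1), 6 fell (Tfrc, Steap3, Ftl1, Ncoa4, Slc40a1, Aco1) and Ireb2 did not pass, beside 38.7% of all genes higher and 37.6% lower. The 4 genes past 2.5-fold were Tfrc, Steap3, Slc11a2 and Fth1, and 22.6% of all genes passed that size. The median log2 change was -0.31 for the 10 genes and 0.01 for all.

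Sal003 left Tfrc near its IL-4/IL-13 level but raised both ferritin chains. Against IL-4/IL-13, 6 genes rose (Steap3, Slc11a2, Slc11a1, Fth1, Ftl1, Ncoa4), 2 fell (Slc40a1, Aco1) and 2 did not pass (Tfrc, Ireb2), beside 25.9% of all genes higher and 24.6% lower. The largest change among the 10 was that of Fth1, 2.31-fold, below 2.5-fold, which 7.71% of all genes passed. The medians were 0.28 for the 10 genes and 0.00 for all on the log2 scale.

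Oligomycin set A moved all 10 genes past the adjusted p threshold, 4 higher (Slc11a2, Slc11a1, Fth1, Ftl1) and 6 lower (Tfrc, Steap3, Ncoa4, Slc40a1, Aco1, Ireb2), beside 34% of all genes higher and 32.2% lower. Only Tfrc also passed 2.5-fold among the 10, as did 12.7% of all genes. In set B 5 genes rose (Slc11a2, Slc11a1, Fth1, Ftl1, Ncoa4), 3 fell (Tfrc, Slc40a1, Aco1) and 2 did not pass (Steap3, Ireb2), beside 27.9% higher and 26.4% lower over all genes. The largest change in set B was again that of Fth1, 2.48-fold, below the 2.5-fold that 7.96% of all genes passed. The median log2 changes of the 10 genes were -0.39 for set A and 0.11 for set B, with 0.01 and 0.00 for all genes.

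The 2 oligomycin sets were also compared directly. Set A was higher than set B for 1 of 10 genes (Slc11a2) and lower for 5 (Tfrc, Steap3, Fth1, Ncoa4, Aco1), and 4 did not pass (Slc11a1, Ftl1, Slc40a1, Ireb2), beside 19.9% of all genes higher and 21.3% lower. The largest of these differences was that of Tfrc, 2.27-fold, and 2.62% of all genes differed by 2.5-fold. The median log2 difference was -0.21 for the 10 genes and 0.00 for all. The direction depends on no reading of the labels, but which side held ISRIB cannot be told from them.

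**Figure D1:**
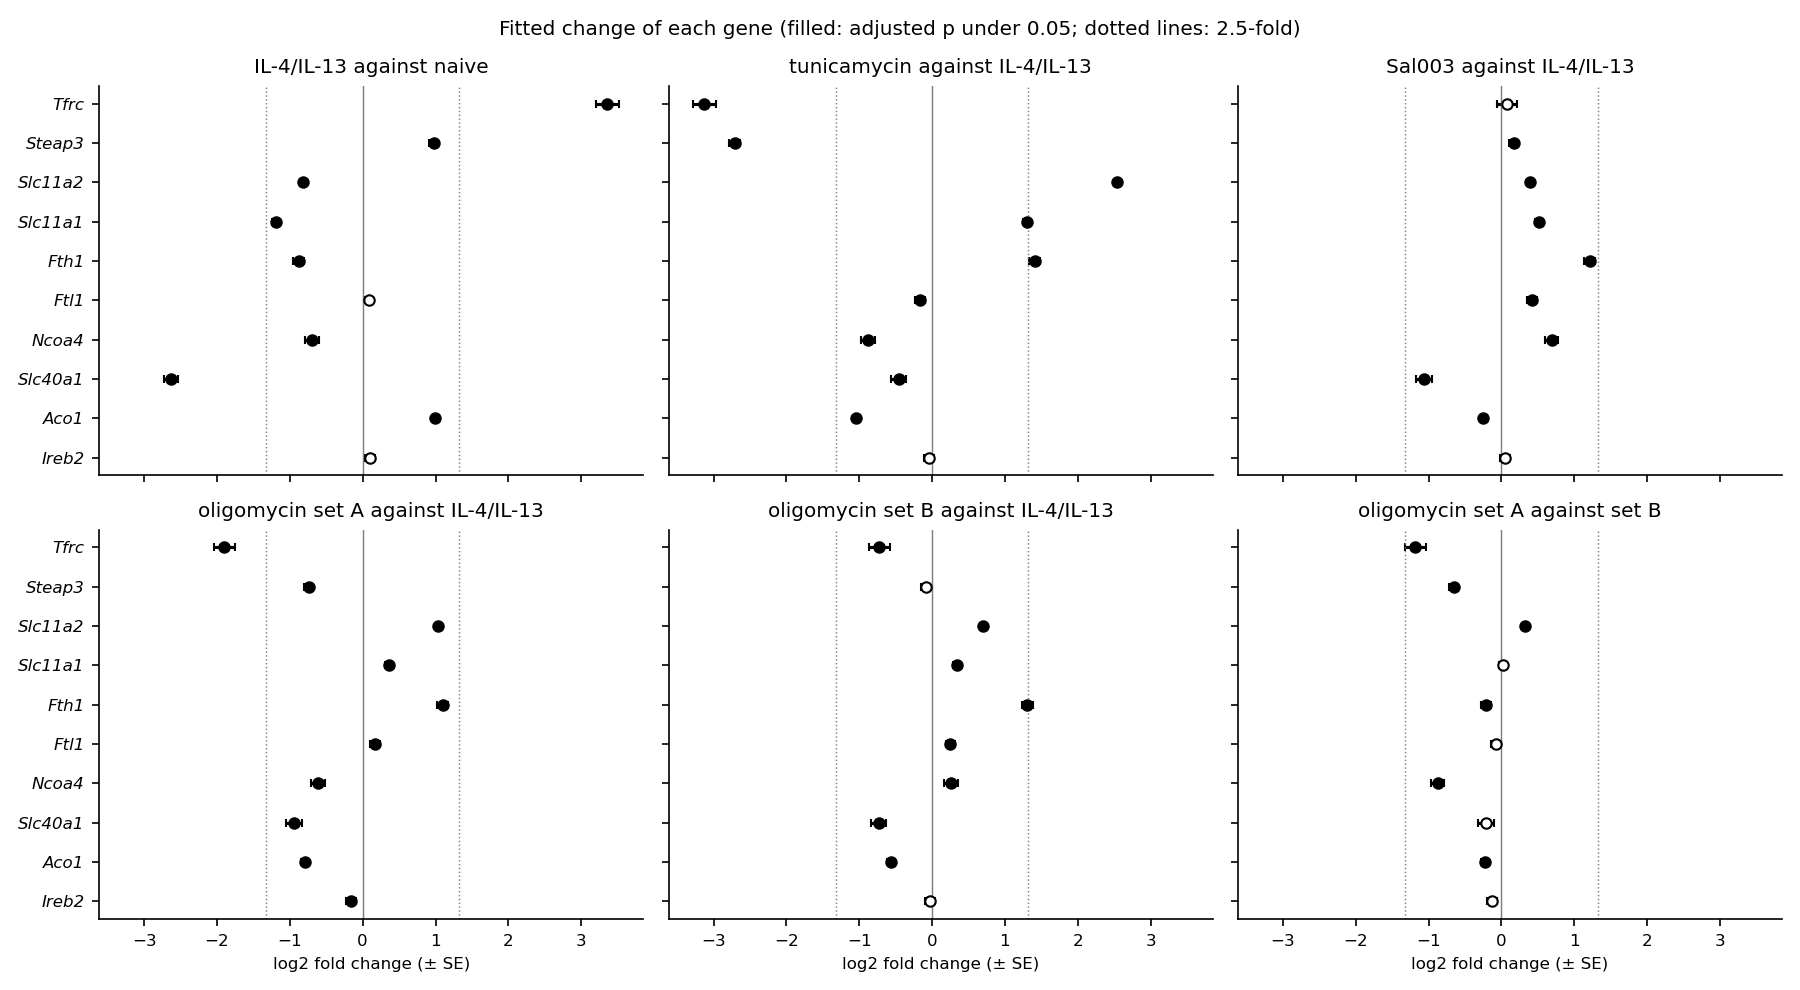
Log2 fold change with its standard error (x axis) of the 10 iron handling genes (y axis) in 6 comparisons, 1 panel each. Filled points passed an adjusted p of 0.05 in edgeR's quasi-likelihood test, open points did not, and dotted lines mark 2.5-fold. Tfrc lies at 3.36 after IL-4/IL-13 and at -3.13 with tunicamycin added, and Fth1 lies above 1 in all 4 inhibitor panels.

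The levels of each gene were ordered over the groups with the same model. Over all genes, the share past the adjusted p threshold in either direction was 77.6% for tunicamycin against naive, 62.5% for Sal003 against naive, 71% for oligomycin set A against naive, 63.8% for set B against naive, 63.5% for tunicamycin against set A, 71.9% for tunicamycin against Sal003, 51.5% for set A against Sal003, 71.1% for tunicamycin against set B and 18.5% for set B against Sal003. Values of single genes are CPM in the order of mice 1, 2, 4 and 5, and changes are log2 fold changes ± SE from the model. In these bulk libraries fewer cells that express a gene and less RNA per cell cannot be told apart.

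Tfrc encodes the transferrin receptor, the entry point for transferrin-bound iron (ENSMUSG00000022797, chr16:32427556-32451612, + strand). Naive libraries held 99.9, 82.0, 108 and 99.6 CPM, and IL-4/IL-13 libraries 970.4, 961, 1145 and 923 CPM. The lowest cytokine-treated library was far above the highest naive one, and the fitted change was 3.36 ± 0.15 (edgeR adjusted p = 1.3e-15) with all libraries and 3.30 without the naive library of mouse 2 (edgeR adjusted p = 3.8e-14). With tunicamycin the libraries held 111, 119, 122 and 107 CPM, a change of -3.13 ± 0.15 from IL-4/IL-13 (edgeR adjusted p = 1.3e-15). This range overlapped that of the naive libraries, from which tunicamycin did not differ past the threshold (0.23 ± 0.15, edgeR adjusted p = 0.15).

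With Sal003 the Tfrc values were 1053, 1039, 1355 and 761 CPM, on both sides of the IL-4/IL-13 range (0.07 ± 0.14, edgeR adjusted p = 0.69). Oligomycin set A held 271, 263, 302 and 234 CPM and set B 678, 539.6, 756 and 452 CPM. Both sets were below every IL-4/IL-13 library and above every naive one, and set A was below set B in 4 of 4 mice (-1.18 ± 0.14, edgeR adjusted p = 2.7e-07). The mean ± SD rose in the order naive (97.4 ± 11.05), tunicamycin (115 ± 6.80), set A (268 ± 27.7), set B (606 ± 136), IL-4/IL-13 (999.6 ± 98.9) and Sal003 (1052 ± 243), with the first pair and the last pair of neighbours not past the threshold. Mouse 4 gave the highest Tfrc level in 6 of 6 groups and mouse 5 the lowest in 5 of 6, and the spread was widest in Sal003 and set B. Among the genes whose log2 CPM was most like that of Tfrc over the 24 libraries were Snn (r = 0.983) and B4galt5 (r = 0.971). These and the likeness values below are descriptions over 8645 genes with a mean of at least 10 CPM, and the points share groups and mice.

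**Figure D2:**
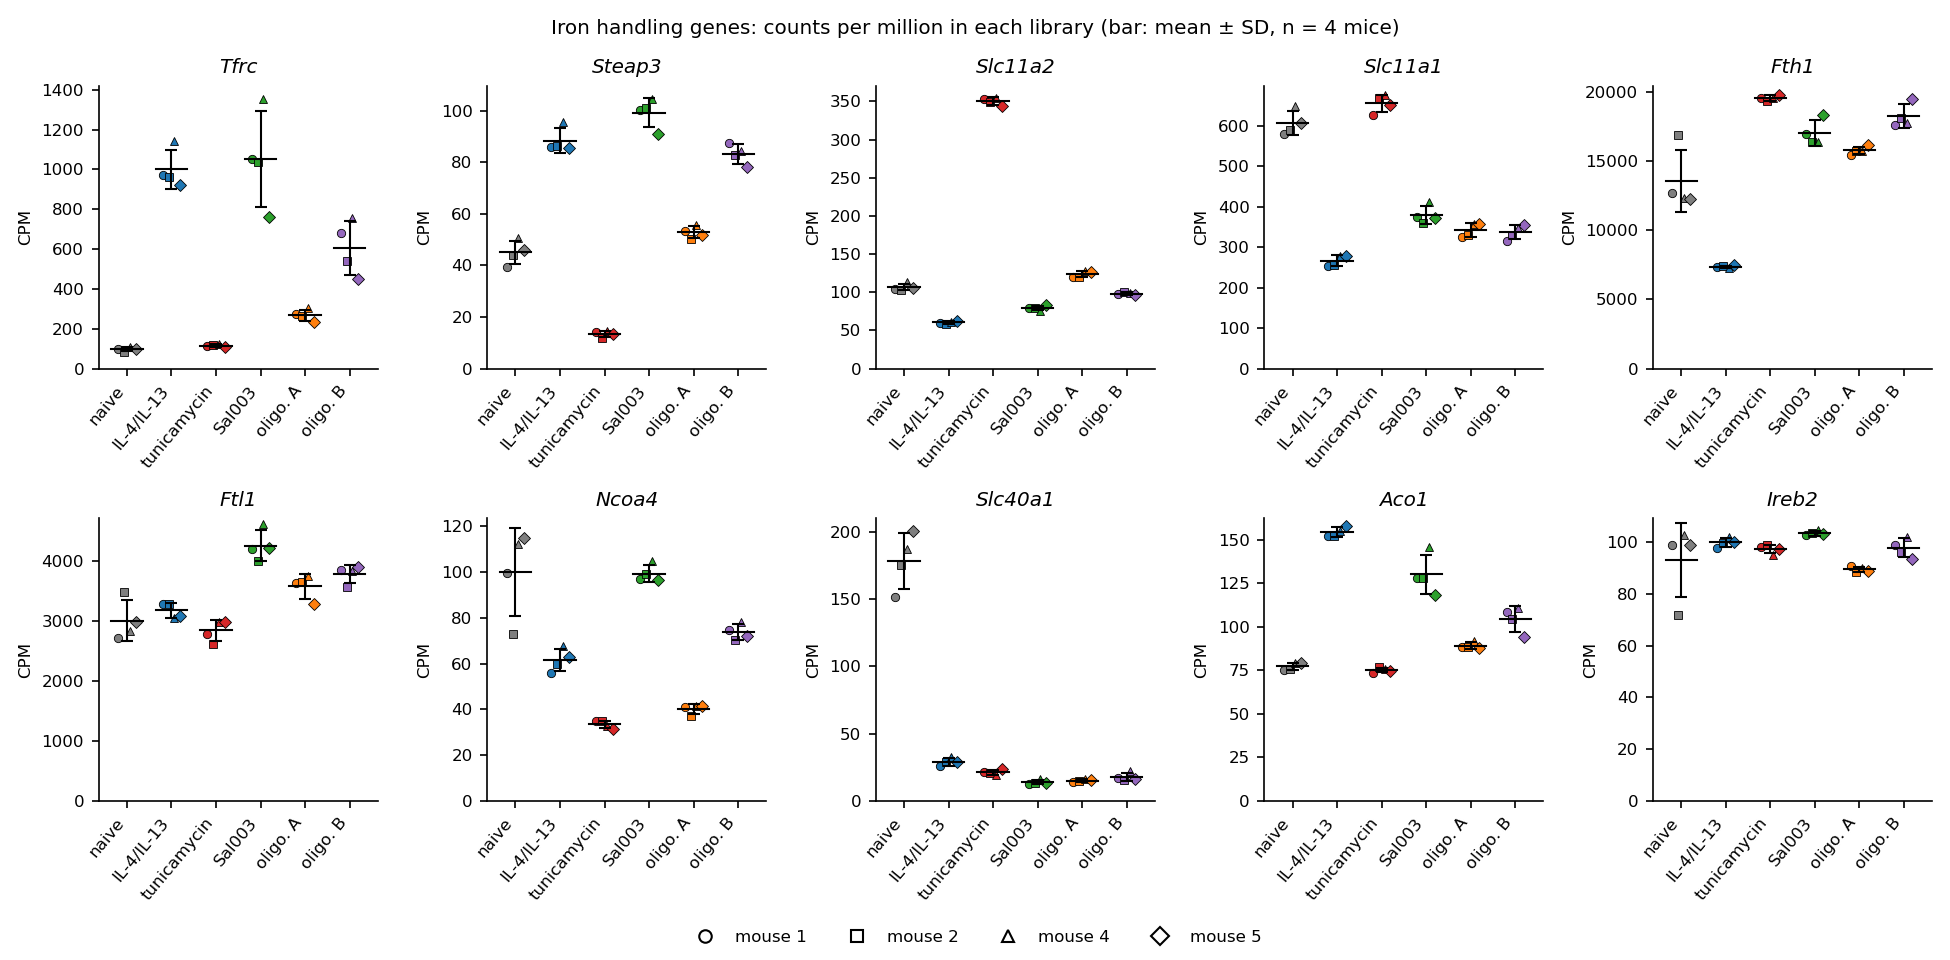
CPM (y axis, from 0) of the 10 genes in the 6 groups (x axis, with oligo. A and B for the oligomycin sets), 1 panel per gene, with a marker shape per mouse and the mean ± SD of 4 libraries as a bar. Tfrc is at 82.0 to 108 CPM in naive libraries and at 923 to 1145 CPM with IL-4/IL-13, and Slc40a1 is above 100 CPM in the naive group alone.

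Steap3 encodes an endosomal reductase that turns ferric into ferrous iron after transferrin uptake (ENSMUSG00000026389, chr1:120118487-120200435, - strand). Its level was 39.6, 44.1, 50.7 and 45.8 CPM in naive and 85.9, 86.2, 95.6 and 85.6 CPM in IL-4/IL-13 libraries, with no overlap (0.97 ± 0.07, edgeR adjusted p = 2.3e-12). The tunicamycin libraries held 14.1, 11.9, 14.6 and 13.5 CPM. They lay below all other libraries of the series, naive included, at -2.71 ± 0.07 against IL-4/IL-13 (edgeR adjusted p = 7.3e-21) and -1.74 ± 0.07 against naive (edgeR adjusted p = 8.7e-17).

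Sal003 libraries held 100.5, 101, 104 and 91.2 CPM of Steap3, which overlapped the IL-4/IL-13 range and differed by 0.17 ± 0.06 (edgeR adjusted p = 0.03). That call was lost without mouse 1, 2 or 5 (edgeR adjusted p = 0.15, 0.11 and 0.064) and also in DESeq2, with upper-quartile normalization and with the strict count filter (at least 10 counts in every library). Set A held 53.5, 50.2, 55.6 and 51.9 CPM (-0.74 ± 0.06 against IL-4/IL-13, edgeR adjusted p = 2.3e-10). Set B held 87.4, 82.8, 84.3 and 78.1 CPM, which overlapped IL-4/IL-13 (-0.09 ± 0.06, edgeR adjusted p = 0.25). The order of the means was thus tunicamycin, naive, set A, set B, IL-4/IL-13 and Sal003, with set B and IL-4/IL-13 not separated. The most alike genes were Cd9 (r = 0.997), Abcd2 (r = 0.995) and Ifi30 (r = 0.992).

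Slc11a2 encodes DMT1, the divalent metal transporter that moves ferrous iron across the endosomal membrane (ENSMUSG00000023030, chr15:100285776-100322953, - strand). Naive libraries held 105, 103, 113 and 106 CPM and IL-4/IL-13 libraries 59.7, 58.8, 60.7 and 62.1 CPM, a fall without overlap (-0.82 ± 0.04, edgeR adjusted p = 2.2e-15). With tunicamycin the level was 353, 349.5, 355 and 344 CPM, 5.81-fold above IL-4/IL-13 (2.54 ± 0.04, edgeR adjusted p = 3.2e-25) and also above every naive library (1.72 ± 0.04, edgeR adjusted p = 2.4e-22). Thus the gene with the largest rise under tunicamycin among the 10 was one that the cytokines had lowered.

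Sal003 libraries held 78.7, 79.1, 76.0 and 83.4 CPM of Slc11a2, oligomycin set A 119, 120.5, 127 and 126 CPM and set B 97.5, 100.2, 99.0 and 96.3 CPM. All 3 groups were above every IL-4/IL-13 library, at 0.40 ± 0.04, 1.03 ± 0.04 and 0.70 ± 0.04 (edgeR adjusted p = 5.5e-09, 2.3e-17 and 1.2e-13). Set A was above set B in 4 of 4 mice (0.33 ± 0.04, edgeR adjusted p = 1.4e-07) and above naive (0.21 ± 0.04, edgeR adjusted p = 3.2e-05), while set B was below naive (-0.12 ± 0.04, edgeR adjusted p = 0.0081). The means rose in the order IL-4/IL-13 (60.3 ± 1.41), Sal003 (79.3 ± 3.08), set B (98.2 ± 1.72), naive (107 ± 4.44), set A (123 ± 3.90) and tunicamycin (350.5 ± 4.79), and every pair of neighbours passed the threshold with no overlap of libraries. Slc11a2 was most like Impdh1 (r = 0.990), Yipf4 (r = 0.984) and Spart (r = 0.983), and its correlation with Steap3 over the 24 libraries was -0.949.

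Slc11a1 encodes NRAMP1, a metal transporter of the phagosome membrane (ENSMUSG00000026177, chr1:74414303-74425448, + strand). Whether the transporter was functional in macrophages of this mouse strain was not measured, so the values below describe its RNA alone. Its level was 580.0, 591, 649 and 607 CPM in naive and 253, 255, 278 and 278 CPM in IL-4/IL-13 libraries (-1.19 ± 0.05, edgeR adjusted p = 7.9e-16). Tunicamycin libraries held 626, 669, 675 and 651 CPM, 1.30 ± 0.05 above IL-4/IL-13 (edgeR adjusted p = 3.6e-17). They overlapped the naive libraries and did not differ from them past the threshold (0.11 ± 0.05, edgeR adjusted p = 0.056), but did without the naive library of mouse 2 (0.14, edgeR adjusted p = 0.024).

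The other inhibitor groups lay between IL-4/IL-13 and naive for Slc11a1. Sal003 libraries held 374, 359, 412 and 372 CPM, set A 325, 329.7, 357 and 357 CPM and set B 316, 329, 348 and 354 CPM. Each was above every IL-4/IL-13 library, at 0.51 ± 0.05, 0.36 ± 0.05 and 0.34 ± 0.05 (edgeR adjusted p = 1.2e-08, 1.5e-06 and 6.1e-06), and below every naive library. Sets A and B overlapped and did not differ past the threshold (0.02 ± 0.05, edgeR adjusted p = 0.78), and both were below Sal003 (edgeR adjusted p = 0.021 and 0.024). Among the genes most like Slc11a1 were Cpd (r = 0.979) and Sh3bp5 (r = 0.978).

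Fth1 encodes the ferritin heavy chain, whose ferroxidase activity loads iron into the shell (ENSMUSG00000024661, chr19:9957911-9962462, + strand). The naive libraries held 12714, 16913, 12342 and 12267 CPM, with mouse 2 far above the other 3, and the IL-4/IL-13 libraries 7329, 7402, 7294 and 7472 CPM. Every IL-4/IL-13 library was below every naive one, and the change was -0.88 ± 0.07 (edgeR adjusted p = 8e-11) with all libraries and -0.74 without the naive library of mouse 2 (edgeR adjusted p = 6.6e-14).

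All 4 inhibitor groups held more Fth1 RNA than IL-4/IL-13 alone, from 2.14-fold in set A to 2.66-fold with tunicamycin. Tunicamycin libraries held 19563, 19344, 19579.6 and 19831 CPM, Sal003 16993, 16391, 16433 and 18382 CPM, set A 15485, 15761, 15749.9 and 16155 CPM and set B 17633, 18147, 17755 and 19519 CPM. None of these libraries overlapped IL-4/IL-13, and the changes were 1.41 ± 0.07, 1.21 ± 0.07, 1.10 ± 0.07 and 1.31 ± 0.07 (edgeR adjusted p = 3.2e-15, 5.7e-13, 9.8e-13 and 1.1e-13). Against naive, tunicamycin was 0.53 ± 0.07 and set B 0.43 ± 0.07 higher without overlap (edgeR adjusted p = 2.7e-07 and 1e-05), and Sal003 and set A overlapped the naive library of mouse 2 (0.33 ± 0.07 and 0.22 ± 0.07, edgeR adjusted p = 0.00026 and 0.0079). Without that library the 4 differences from naive were 0.70 for tunicamycin, 0.56 for set B, 0.46 for Sal003 and 0.35 for set A, all past the threshold in edgeR.

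The Fth1 means rose in the order IL-4/IL-13 (7374 ± 79.1), naive (13559 ± 2245), set A (15788 ± 276), Sal003 (17049.9 ± 929.9), set B (18263 ± 865) and tunicamycin (19579 ± 199). From set A upward no pair of neighbours passed the threshold (edgeR adjusted p = 0.2, 0.38 and 0.21). In the fit without the naive library of mouse 2, set A and Sal003 (-0.11, edgeR adjusted p = 0.017) and tunicamycin and set B (0.14, edgeR adjusted p = 0.002) did pass. Set A was below set B in 4 of 4 mice (-0.21 ± 0.07, edgeR adjusted p = 0.019), a call that was lost without mouse 1, 4 or 5 (edgeR adjusted p = 0.1, 0.05 after rounding, and 0.13) and with upper-quartile normalization. When only the naive library of mouse 2 was left out, the call was kept (-0.2, edgeR adjusted p = 9e-05). Fth1 was most like Sirt2 (r = 0.966), Psen2 (r = 0.962) and Tmed1 (r = 0.950).

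Ftl1 encodes the ferritin light chain, which favours nucleation of the iron core (ENSMUSG00000050708, chr7:45107367-45109308, - strand). Its level was 2718, 3487, 2827 and 2986 CPM in naive and 3291, 3280.4, 3054 and 3089 CPM in IL-4/IL-13 libraries, which overlapped (0.08 ± 0.07, edgeR adjusted p = 0.3). Mouse 2 was the highest of the naive libraries, and without that library the difference passed the threshold (0.17, edgeR adjusted p = 0.012). Without mouse 2 in all groups it passed too (0.14, edgeR adjusted p = 0.038).

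Ftl1 moved less than Fth1 under the inhibitors. Tunicamycin libraries held 2779, 2624, 2987 and 2977 CPM, Sal003 4194, 3993, 4613 and 4224 CPM, set A 3641, 3650.0, 3756 and 3276 CPM and set B 3844, 3569, 3831 and 3901 CPM. Sal003 and set B lay above every IL-4/IL-13 library (0.42 ± 0.07 and 0.25 ± 0.07, edgeR adjusted p = 7.8e-06 and 0.0022), tunicamycin lay below every one (-0.16 ± 0.07, edgeR adjusted p = 0.029), and set A overlapped them (0.17 ± 0.07, edgeR adjusted p = 0.025). The tunicamycin call was lost without mouse 1, 2 or 5 (edgeR adjusted p = 0.26, 0.095 and 0.079) and with no count filter, and the set A call without mouse 1, 4 or 5 (edgeR adjusted p = 0.083, 0.14 and 0.06) and with the strict count filter. The means rose in the order tunicamycin (2842 ± 174), naive (3005 ± 340.0), IL-4/IL-13 (3178 ± 124), set A (3581 ± 209.9), set B (3786 ± 148) and Sal003 (4256 ± 259). The neighbours tunicamycin and naive, naive and IL-4/IL-13, sets A and B, and set B and Sal003 did not pass the threshold. Without the naive library of mouse 2 set B and Sal003 passed as well as IL-4/IL-13 and naive (set B against Sal003 -0.17, edgeR adjusted p = 0.019), and tunicamycin against naive, not past the threshold in either fit, went from -0.08 to 0.04. Ftl1 was most like Lgals1 (r = 0.962), Tmsb10 (r = 0.944) and Cyba (r = 0.913).

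Ftl1 counts are uncertain because 12 other loci of GRCm39 carry a copy of at least 150 bases at 90% identity or more, and 95.9% of its canonical transcript lies at 97% identity or more elsewhere. Of the annotated copies, Ftl1-ps1 (99.5% identity) had 145 to 366 counts per library, and Ftl1 50886 to 100761. Another copy (99% identity over 929 bases) lies within the span of the protein-coding gene Tulp4, which had 856 to 2460 counts, those of its own transcripts included. How reads with several matches were treated is not given in the sources used here.

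Both ferritin chains together took 1.67% ± 0.239 of reads in naive libraries (SD, n = 4), 1.07% ± 0.0305 with IL-4/IL-13, 2.33% ± 0.0481 with tunicamycin, 2.01% ± 0.0882 in the Sal003 group, 2.02% ± 0.0208 in set A and, for set B, 2.12% ± 0.1002. The ratio of Fth1 to Ftl1 counts within a library needs no normalization between libraries. It was 4.68, 4.85, 4.37 and 4.11 in naive, 2.23, 2.26, 2.39 and 2.42 in IL-4/IL-13, and 7.04, 7.37, 6.56 and 6.66 in tunicamycin libraries. These 3 groups did not overlap, and IL-4/IL-13 held the lowest ratio and tunicamycin the highest in 4 of 4 mice. Sal003, set A and set B overlapped the naive range, at 4.02 ± 0.331, 4.42 ± 0.342 and 4.83 ± 0.253.

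The ratio of Tfrc to Fth1 counts sets uptake RNA beside storage RNA. It was 0.00740 ± 0.00174 in naive and 0.136 ± 0.0147 in IL-4/IL-13 libraries. With tunicamycin it was 0.00585 ± 0.000390, inside the naive range of 0.00485 to 0.00877. Sal003 libraries ran from 0.0414 to 0.0825, set A from 0.0145 to 0.0192 and set B from 0.0231 to 0.0426, all below the IL-4/IL-13 libraries and above the naive ones, with only Sal003 and set B overlapping. These ratios are descriptions with no test.

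**Figure D3:**
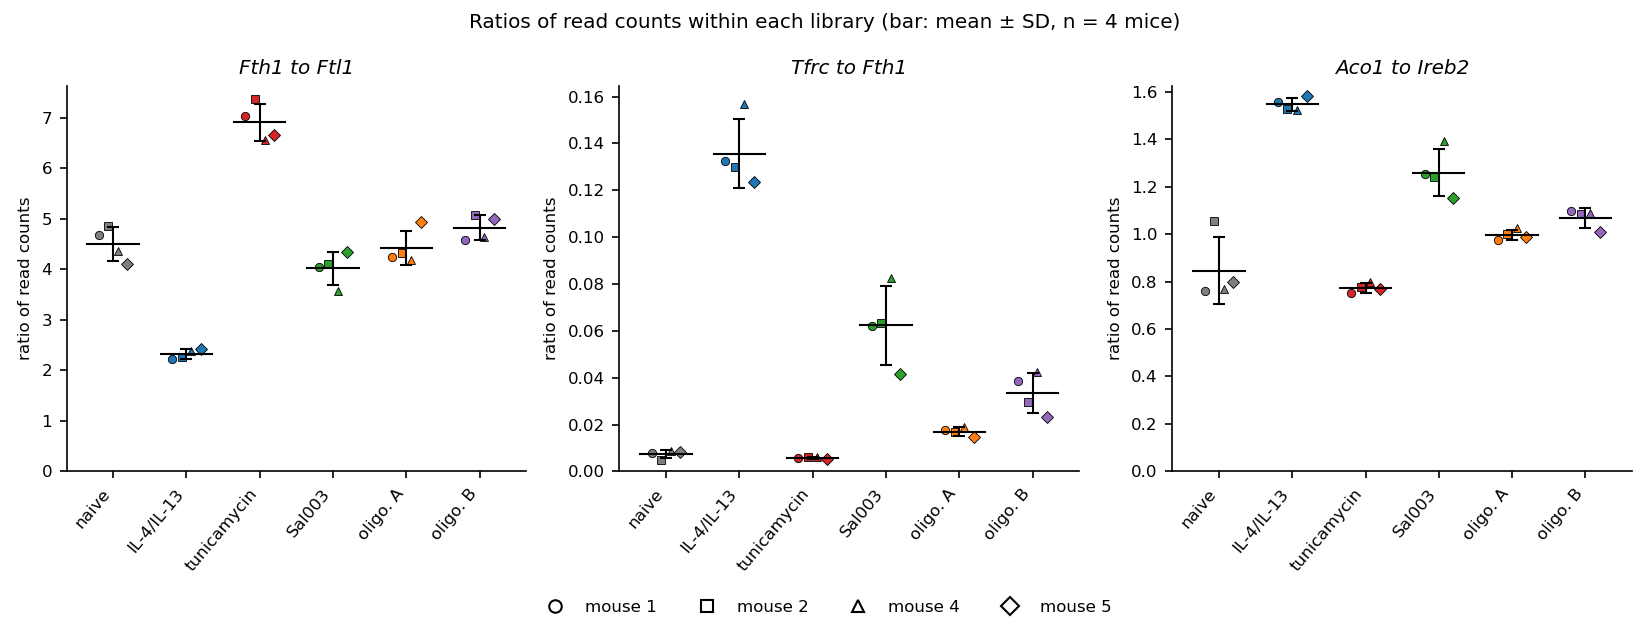
Ratio of read counts (y axis, from 0) of Fth1 to Ftl1, Tfrc to Fth1 and Aco1 to Ireb2 in each library of the 6 groups (x axis), with a marker shape per mouse and the mean ± SD of 4 libraries as a bar. The Fth1 to Ftl1 ratio runs from 2.23 in an IL-4/IL-13 library to 7.37 in a tunicamycin library.

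Levels of different genes were compared per length, as CPM per kilobase of the canonical transcript unless stated. Fth1 stood at 14595 and Ftl1 at 3101 in naive libraries, and the next gene, Slc11a1, at 233. With IL-4/IL-13 the values were 7938 for Fth1, 3280 for Ftl1, 204 for Tfrc and 102 for Slc11a1, so Tfrc stood above Slc11a1 in that group, as it also did by the other length (141 and 66.8 per kilobase of all annotated exons). With the longer length of all annotated exons, Fth1 fell below Ftl1 in IL-4/IL-13 libraries (2095 and 2370), so the order of the 2 chains there depends on the length used.

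Ncoa4 encodes the cargo receptor that carries ferritin to lysosomes, the step that frees stored iron (ENSMUSG00000056234, chr14:31881822-31902234, + strand). Naive libraries held 99.4, 72.8, 112 and 115 CPM and IL-4/IL-13 libraries 56.0, 60.0, 67.5 and 63.1 CPM (-0.70 ± 0.09, edgeR adjusted p = 3.5e-07). The groups did not overlap, and without the naive library of mouse 2, the lowest of its group, the change was -0.81 (edgeR adjusted p = 4.8e-11). With tunicamycin the level was 34.7, 34.8, 32.7 and 31.4 CPM (-0.88 ± 0.10 against IL-4/IL-13, edgeR adjusted p = 7.7e-09), and with Sal003 it was 96.9, 99.2, 105 and 96.5 CPM (0.69 ± 0.09, edgeR adjusted p = 7.1e-07). These agents thus moved Ncoa4 in opposite directions from the same IL-4/IL-13 libraries, and they differed from each other by -1.57 ± 0.10 (tunicamycin against Sal003, edgeR adjusted p = 1.3e-13).

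The oligomycin sets also moved Ncoa4 in opposite directions. Set A held 40.8, 36.9, 41.5 and 41.6 CPM, below every IL-4/IL-13 library (-0.62 ± 0.09, edgeR adjusted p = 3e-06). Set B held 74.8, 70.1, 78.3 and 72.3 CPM, above every one (0.26 ± 0.09, edgeR adjusted p = 0.019), a call that was lost without mouse 1 (0.20, edgeR adjusted p = 0.2). The direct difference of set A from set B was -0.88 ± 0.09, in 4 of 4 mice (edgeR adjusted p = 3.8e-08). Means rose in the order tunicamycin (33.4 ± 1.65), set A (40.2 ± 2.23), IL-4/IL-13 (61.7 ± 4.85), set B (73.9 ± 3.49), Sal003 (99.4 ± 3.91) and naive (99.9 ± 19.3), and of these neighbours Sal003 and naive did not pass the threshold (edgeR adjusted p = 0.94, and 0.079 at -0.12 without the naive library of mouse 2). Ncoa4 was most like Pdxk (r = 0.971), Nckap1l (r = 0.961) and Rab8b (r = 0.961). Its counts are uncertain, since the pseudogene Ncoa4-ps matches it at 99.94% over 3313 bases and 76.4% of its transcript, although that copy held 2 to 41 counts against 577 to 2316 for Ncoa4.

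Slc40a1 encodes ferroportin, the iron exporter (ENSMUSG00000025993, chr1:45947211-45965683, - strand). Naive libraries held 151, 175, 187 and 201 CPM and IL-4/IL-13 libraries 25.9, 28.6, 32.5 and 28.5 CPM. The fall of 6.17-fold (-2.63 ± 0.10, edgeR adjusted p = 1.4e-17) showed in 4 of 4 mice and was -2.62 on the log2 scale without the naive library of mouse 2. No inhibitor group came back toward the naive level.

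Every inhibitor group held less Slc40a1 RNA than IL-4/IL-13 alone, without overlap. Tunicamycin libraries held 21.1, 20.9, 18.8 and 23.3 CPM, Sal003 12.8, 13.3, 16.0 and 13.4 CPM, set A 14.2, 14.5, 16.0 and 15.4 CPM and set B 16.7, 15.2, 21.9 and 16.1 CPM. The changes from IL-4/IL-13 were -0.46 ± 0.10, -1.06 ± 0.11, -0.94 ± 0.10 and -0.73 ± 0.10 (edgeR adjusted p = 0.00027, 7.5e-09, 1.8e-08 and 1.7e-06). From the lowest mean the order was Sal003 (13.9 ± 1.43), set A (15.0 ± 0.827), set B (17.5 ± 3.03), tunicamycin (21.0 ± 1.84), IL-4/IL-13 (28.9 ± 2.71) and naive (178 ± 21.0). The neighbours Sal003 and set A overlapped and did not pass the threshold (edgeR adjusted p = 0.4), nor did sets A and B (edgeR adjusted p = 0.12), while set B and tunicamycin overlapped and passed it (edgeR adjusted p = 0.025). Slc40a1 was most like Med22 (r = 0.968), Fxyd2 (r = 0.968) and Usp35 (r = 0.966).

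Aco1 encodes iron regulatory protein 1, an enzyme that is a cytosolic aconitase while it holds its iron-sulfur cluster and binds IREs once the cluster is lost (ENSMUSG00000028405, chr4:40142998-40199010, + strand). Its level was 75.1, 75.9, 79.3 and 79.1 CPM in naive and 152, 152, 155 and 158 CPM in IL-4/IL-13 libraries, a rise in 4 of 4 mice (1.00 ± 0.05, edgeR adjusted p = 1.8e-14). Tunicamycin libraries held 73.6, 76.8, 75.9 and 74.6 CPM, at -1.04 ± 0.05 from IL-4/IL-13 (edgeR adjusted p = 2.5e-15) and not past the threshold from naive (-0.04 ± 0.05, edgeR adjusted p = 0.5).

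Sal003 libraries held 128, 128, 146 and 118 CPM of Aco1, set A 88.4, 88.5, 92.1 and 87.6 CPM and set B 109, 104, 111 and 94.2 CPM. All were below IL-4/IL-13 (-0.25 ± 0.05, -0.79 ± 0.05 and -0.56 ± 0.05, edgeR adjusted p = 0.00027, 1.1e-12 and 1.2e-09) and above naive, without overlap in either case, and set A was below set B (-0.23 ± 0.05, edgeR adjusted p = 0.00093). The order of the Aco1 means was tunicamycin, naive, set A, set B, Sal003 and IL-4/IL-13, in which only the first pair of neighbours did not pass. Aco1 and Tfrc had a correlation of 0.946 over the 24 libraries, the highest among pairs of the 10 genes. Steap3 came next, at 0.815 with Tfrc and 0.774 with Aco1. Other pairs were less alike, such as Aco1 with Ireb2 (0.445) and Tfrc with Fth1 (-0.365), or went in opposite directions, such as Tfrc with Slc11a1 (-0.843). The genes most like Aco1 were Atp5f1a (r = 0.984), a subunit of the ATP synthase, Hadha (r = 0.979), an enzyme of fatty acid oxidation, and Sdha (r = 0.979), a subunit of respiratory complex II.

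Ireb2 encodes iron regulatory protein 2, which is controlled mainly by degradation of the protein when iron is ample (ENSMUSG00000032293, chr9:54770970-54820011, + strand). It was the steadiest of the 10 genes, with group means from 89.5 CPM in set A to 103 CPM in Sal003. Naive libraries held 98.8, 71.9, 103 and 98.9 CPM and IL-4/IL-13 libraries 97.9, 99.6, 102 and 100.2 CPM, which overlapped (0.10 ± 0.07, edgeR adjusted p = 0.2). The naive library of mouse 2 was the lowest of the series, and without mouse 2 the difference was -0.00 (edgeR adjusted p = 0.95).

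Under tunicamycin Ireb2 ranged from 95.0 to 98.9 CPM, under Sal003 from 103 to 105 CPM, in set A from 88.6 to 90.9 CPM and in set B from 93.6 to 102 CPM. Against IL-4/IL-13 only set A passed the threshold (-0.16 ± 0.07, edgeR adjusted p = 0.04), and that call was lost without mouse 1, 4 or 5 (edgeR adjusted p = 0.08, 0.12 and 0.11) and with no count filter. When only the naive library of mouse 2 was left out, the call was kept (-0.16, edgeR adjusted p = 8.8e-05). Sets A and B did not overlap but did not pass either (-0.13 ± 0.07, edgeR adjusted p = 0.14), and they passed without the naive library of mouse 2 (-0.12, edgeR adjusted p = 0.0033), without mouse 2 in all groups (-0.13, edgeR adjusted p = 0.012) and in a fit of only these 2 groups (-0.12, edgeR adjusted p = 0.02). Without that naive library set A also passed against naive (-0.15, edgeR adjusted p = 0.00034, with -0.06 and 0.44 for all libraries) and tunicamycin passed against set A (0.15, edgeR adjusted p = 0.00018), while set B against Sal003 came to -0.09, just inside the threshold (edgeR adjusted p = 0.05 after rounding). The differences of tunicamycin and of set B from naive, not past the threshold in either fit, went from 0.06 to 0.00 and from 0.07 to -0.03. Fam91a1 (r = 0.887) and Dicer1 (r = 0.872) were among the most alike genes. The ratio of Aco1 to Ireb2 counts was 0.760, 1.06, 0.770 and 0.800 in naive libraries, 1.55 ± 0.0266 with IL-4/IL-13, 0.773 ± 0.0204 with tunicamycin, 1.26 ± 0.0994 under Sal003, 0.996 ± 0.0220 in set A and, for set B, 1.07 ± 0.0418, and mouse 2 was the high naive value.

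Exons of some of the genes overlap other annotated genes, and whether the counting used strand is not given in the sources used here. An annotated gene on the opposite strand covers 41.5% of the exon length of Fth1 (Gm36913), 26.5% of Ftl1 (Gm10252), 8.37% of Slc11a2 (Gm5475), 2.78% of Slc40a1 (Gm69542) and up to 3.6% of Ncoa4 (Gm62901). For Ftl1 another 8.13% is shared with Gm56125 on the same strand. Reads from those stretches cannot be assigned with certainty.

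The other genes of iron and heme handling were taken from 4 lists by role. Of 20 further genes of iron uptake, binding and export, 10 had enough reads to be tested (Tfr2, Heph, Hamp, Hamp2, Steap1, Steap2, Steap4, Cybrd1, Scara5 and Timd2 did not). Against naive, IL-4/IL-13 raised 4 of the 10 and lowered 4. Against IL-4/IL-13, tunicamycin raised 6 and lowered 4, Sal003 raised 3 and lowered 5 (3 lower without mouse 1 or without mouse 2), set A raised 5 and lowered 4 and set B raised 4 and lowered 3, and set A was higher than set B for 4 and lower for 4. Slc22a17, counted as lower in each inhibitor group, had few reads, with a mean of 1.13 CPM with IL-4/IL-13 and at most 0.348 with an inhibitor. Over all genes tested, the shares higher and lower were 30.1% and 30.4% for IL-4/IL-13 against naive, 38.7% and 37.6% for tunicamycin, 25.9% and 24.6% for Sal003, 34% and 32.2% for set A, 27.9% and 26.4% for set B, and 19.9% and 21.3% for set A against set B. The median log2 changes of the 10 were 0.04, 0.25, -0.10, 0.06, 0.04 and -0.04 in that order of comparisons, and those of all genes lay between -0.02 and 0.01.

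Ceruloplasmin (Cp), the ferroxidase that works with ferroportin, was at 17.9 ± 1.83 CPM in naive libraries and 0.851 ± 0.216 with IL-4/IL-13 (-4.39 ± 0.15, edgeR adjusted p = 1.9e-18). It reached 112 ± 10.3 CPM with tunicamycin (7.04 ± 0.13, edgeR adjusted p = 3.7e-24), 5.39 ± 0.672 under Sal003, 11.6 ± 0.507 in set A and, for set B, 3.23 ± 0.492, all higher than with IL-4/IL-13. Lipocalin 2 (Lcn2), which binds bacterial iron carriers, was at 3.28 ± 0.942 CPM with IL-4/IL-13 and 811 ± 87.0 CPM with tunicamycin (7.93 ± 0.17, edgeR adjusted p = 7.9e-23), and at most 3.45 CPM in any Sal003 or oligomycin library. Transferrin (Trf), the ligand of the receptor, went the other way, from 612 ± 75.7 CPM in naive to 964 ± 88.4 with IL-4/IL-13 (0.66 ± 0.12, edgeR adjusted p = 4.8e-05), and down to 19.0 ± 0.888 with tunicamycin, 283 ± 51.3 under Sal003, 137 ± 6.76 in set A and, for set B, 315 ± 65.2. The receptor and its ligand both rose with the cytokines, and with Sal003 Trf fell (-1.77 ± 0.13, edgeR adjusted p = 1.4e-11) where Tfrc did not pass. The metal transporter Slc39a8 was at 7.71 ± 1.62 CPM in naive, 2.92 ± 0.880 in IL-4/IL-13, 12.8 ± 1.62 in set A and, for set B, 4.52 ± 0.866, and its rise in set B (0.61 ± 0.20, edgeR adjusted p = 0.014) was lost without mouse 1 (0.37, edgeR adjusted p = 0.24).

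All 11 genes of heme uptake, breakdown and recycling were tested. IL-4/IL-13 raised 3 and lowered 2 against naive, and 5 were higher without the naive library of mouse 2 or without mouse 2 in all groups. Tunicamycin raised 3 and lowered 8, Sal003 raised 1 and lowered 6 (2 raised without the naive library of mouse 2), set A raised 1 and lowered 6 and set B raised 2 and lowered 6 (1 raised without mouse 1). Of the 3 raised by tunicamycin, Flvcr2 had a mean of 1.81 CPM there and at most 0.0887 in any other group. It had enough reads to be tested only through the tunicamycin group, so the count filter itself favoured that rise. Set A against set B gave 1 higher and 7 lower (4 lower without mouse 1). Over all genes the shares higher and lower were 30.1% and 30.4% for IL-4/IL-13, 38.7% and 37.6% for tunicamycin, 25.9% and 24.6% for Sal003, 34% and 32.2% for set A, 27.9% and 26.4% for set B and 19.9% and 21.3% between the sets. The list medians on the log2 scale were 0.04, -0.57, -0.26, -0.48, -0.46 and -0.28.

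Cd163, the receptor for hemoglobin bound to haptoglobin, was at 3.44 ± 0.530 CPM in naive and 9.14 ± 1.23 with IL-4/IL-13 (1.41 ± 0.19, edgeR adjusted p = 5.9e-07), and at most 1.24 CPM in any inhibitor library, where its counts were few. Heme oxygenase 1 (Hmox1), which opens the heme ring and frees its iron, was at 554 ± 61.6 CPM in naive and 524 ± 30.9 in IL-4/IL-13 libraries (-0.08 ± 0.06, edgeR adjusted p = 0.29), and at 700.0 ± 20.1 CPM with tunicamycin, 437 ± 14.3 under Sal003, 539 ± 24.3 in set A and, for set B, 380.3 ± 24.3. Set A was above set B for Hmox1 (0.50 ± 0.06, edgeR adjusted p = 4.7e-07). The constitutive form Hmox2 fell with IL-4/IL-13 from 181 ± 24.4 to 88.3 ± 2.09 CPM (-1.04 ± 0.08, edgeR adjusted p = 1.4e-11), with most of its exon length shared with a gene on the opposite strand. Lrp1, the receptor for heme bound to hemopexin, fell with tunicamycin from 818 ± 54.5 to 107 ± 14.7 CPM (-2.93 ± 0.11, edgeR adjusted p = 4.4e-18) and was lower in set A than in B (-0.61 ± 0.10, edgeR adjusted p = 2.5e-05). The biliverdin reductases followed the list, with Blvra at 123 ± 4.39 CPM in IL-4/IL-13 and 64.7 ± 1.61 in set A, and Blvrb at 232 ± 3.30 in IL-4/IL-13, 146 ± 11.2 in Sal003 and 156 ± 12.1 in set B.

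Of 15 genes of mitochondrial iron transport and iron-sulfur cluster assembly, 13 were tested (Fdx2 and Ftmt were not). IL-4/IL-13 raised 6 and lowered 4 against naive. Tunicamycin raised 7 and lowered 3, Sal003 raised 2 and lowered 2, set A raised 7 and lowered 3 and set B raised 3 and lowered 2, and set A was higher than set B for 7 and lower for 2 (1 lower without mouse 5). These counts stand beside shares over all genes, higher and lower, of 30.1% and 30.4% for IL-4/IL-13, 38.7% and 37.6% for tunicamycin, 25.9% and 24.6% for Sal003, 34% and 32.2% for set A, 27.9% and 26.4% for set B and 19.9% and 21.3% between the sets. The median log2 changes of the 13 genes were 0.08, 0.64, 0.03, 0.38, 0.12 and 0.22. The mitochondrial chaperone Hspa9 was higher with each inhibitor than with IL-4/IL-13, at 139.7 ± 3.32 CPM in naive libraries, 230.4 ± 7.19 with IL-4/IL-13, 351 ± 21.9 with Sal003, 589 ± 37.6 in set B, 1023 ± 16.4 in set A and 1063 ± 13.0 with tunicamycin, with changes from IL-4/IL-13 of 2.21 ± 0.05 with tunicamycin and 2.15 ± 0.05 in set A (edgeR adjusted p = 1e-22 and 2.4e-21). Mitoferrin 1 (Slc25a37), which imports iron into mitochondria, fell with IL-4/IL-13 from 159.6 ± 22.7 to 49.6 ± 2.90 CPM (-1.69 ± 0.10, edgeR adjusted p = 2.2e-13). It rose to 196 ± 7.65 CPM with tunicamycin and 120.2 ± 4.10 in set A, and it stood at 47.5 ± 3.49 with Sal003 and 57.5 ± 10.8 in set B, where the test was not passed. The co-chaperone Hscb was at 18.02 ± 2.03 CPM in naive, 10.4 ± 0.387 in IL-4/IL-13, 15.3 ± 1.59 in Sal003 and 17.1 ± 0.893 in set B libraries.

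Of 10 genes of heme synthesis, 9 were tested, and the erythroid form Alas2 was not. IL-4/IL-13 raised 4 and lowered 3 against naive, tunicamycin raised 3 and lowered 4 against IL-4/IL-13 (2 lower without mouse 5), Sal003 raised 3 and lowered 1, and set A raised 1 and lowered 3. Set B lowered 1 and the other 8 did not pass, although 3 were higher without mouse 2 and 1 without the naive library of mouse 2, with the replicate block or in a fit of only the 2 groups. Set A against set B gave 1 higher and 3 lower (1 lower without mouse 1). The shares over all genes were again 30.1% higher and 30.4% lower for IL-4/IL-13, 38.7% and 37.6% for tunicamycin, 25.9% and 24.6% for Sal003, 34% and 32.2% for set A, 27.9% and 26.4% for set B and 19.9% and 21.3% between the sets. The medians of the 9 genes were 0.12, -0.15, 0.10, 0.01, 0.06 and -0.02 on the log2 scale.

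Alas1, the rate-limiting enzyme of the pathway outside red cells, rose with IL-4/IL-13 from 81.2 ± 4.87 to 199 ± 2.83 CPM (1.30 ± 0.05, edgeR adjusted p = 7e-18). It was at 63.8 ± 2.39 CPM with tunicamycin, 138 ± 6.93 under Sal003 and 113 ± 3.57 in set A, all lower than with IL-4/IL-13, and at 207 ± 7.09 in set B, where the test was not passed. Cpox, a late enzyme, rose with IL-4/IL-13 from 21.6 ± 3.45 to 34.1 ± 0.809 CPM (0.66 ± 0.07, edgeR adjusted p = 1.2e-08) and rose further with tunicamycin to 97.5 ± 2.21 CPM (1.51 ± 0.07, edgeR adjusted p = 1.1e-16). The mitochondrial transporter Abcb10 was at 14.0 ± 0.537 CPM with IL-4/IL-13 and 18.3 ± 2.19 with Sal003, and Urod at 25.5 ± 1.90 in set A and, for set B, 31.6 ± 2.31, a difference (-0.31 ± 0.08, edgeR adjusted p = 0.0037) that was lost without mouse 1 (-0.26, edgeR adjusted p = 0.06). Antisense genes cover 75.8% of the exon length of Hmox2 (the protein-coding Cdip1), 57.9% of that of Urod (the protein-coding Zswim5), 26.2% of Alas1, up to 23.6% of Slc25a37, up to 15.2% of Abcb10 and up to 14.1% of Hspa9, so the values of these genes carry the same uncertainty of strand.

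**Figure D4:**
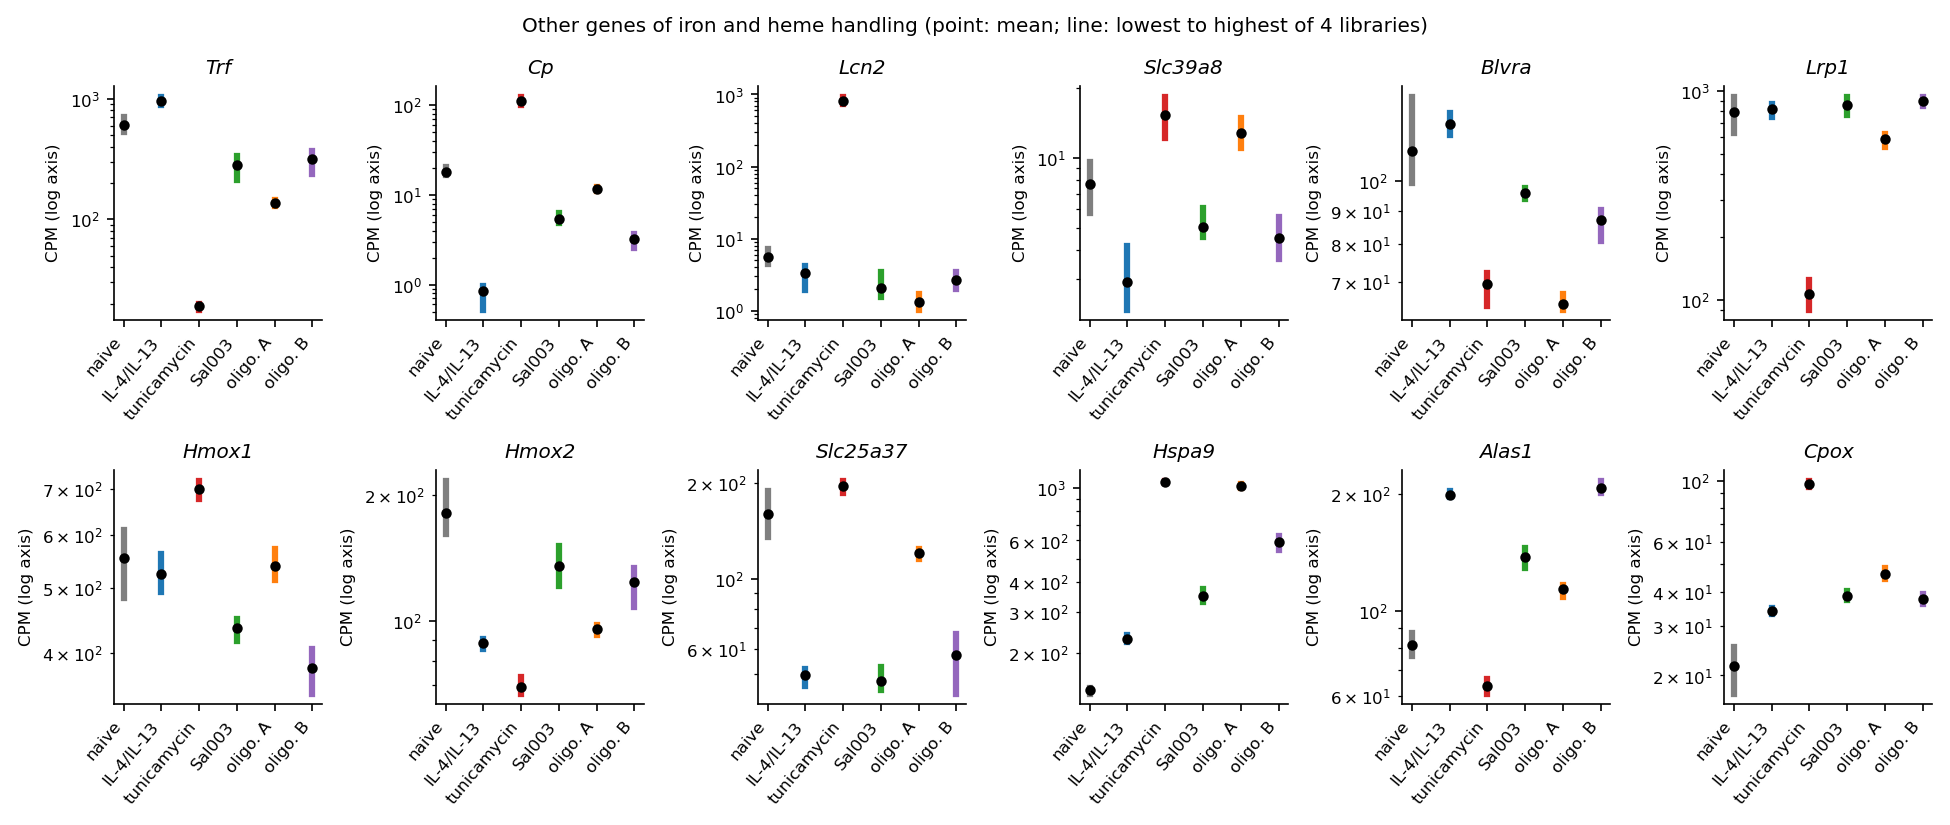
CPM on a log axis (y axis) of 12 other genes of iron and heme handling in the 6 groups (x axis), with the mean of 4 libraries as a point and the lowest to highest library as a line. Lcn2 and Cp stand highest and Trf and Lrp1 lowest in the tunicamycin group.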

How the data were processed

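RNA-seq was made from BMDM of 4 mice in 6 groups. The deposited counts are raw reads per gene that the authors obtained, per the labels and the study's methods, with Cutadapt 1.8, STAR 2.7 and htseq-count 0.9.1 on GRCm39. RSEM 1.2.31 is also named, and a deposited TPM table was not used because its header does not match its columns. Reads not counted for a gene (12.74 to 15.23% per library) were left out, and these can include reads with several matches. There were 0 columns of other samples.

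The members and gene lists were chosen with earlier results of these data known. All 10 members are named, with the 2 largest changes past the threshold per list and comparison (mean of at least 50 counts), further comparisons of those genes, and the 3 most alike genes by Pearson correlation of log2 CPM (prior count 2). Some genes that this rule names are not reported here. Hmox1 and Trf were also given in comparisons outside that rule, after their values were seen. The counts entered 1 edgeR 4.0.16 quasi-likelihood model over 24 libraries (R 4.3.3, TMM, filterByExpr, 13679 genes, Benjamini-Hochberg adjustment, threshold 0.05). This model had no term for the mouse, so its SE and adjusted p do not use the pairing by mouse. The code was also run on simulated counts of 1 comparison, with few changed genes, the same spread for all genes and no mouse effect. That setting is simpler than these libraries, so it does not test the model under their conditions. Markers and ratios got no test. CPM used TMM library sizes. The number of a library is that of its mouse, so numbers pair the samples. Pairs of libraries from 1 mouse deviated together (median r of residuals around group means 0.24, with 56 of 60 pairs over 0.1), unlike pairs from different mice (-0.05, 7 of 180). Counts of reads differed between replicates by more than sampling noise (chi-square per gene 2.14 to 34.38). Copies of each transcript were sought with BLAST+ 2.17.0. The fit was repeated with DESeq2 1.42.0, with upper-quartile factors, without a count filter (27890 genes), with a minimum of 10 counts per library (11017 genes), on each pair of groups by itself, with mouse as a replicate block, and with each mouse left out. Leaving out the naive library of mouse 2 was added after it was seen to stand apart.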

Additional observations from a re-analysis of the deposited data

Results flagged for a closer look

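Over the 10 genes and 6 groups, 60 sets of 4 libraries were checked for 1 library far from the other 3, and 3 were found, where chance gives about 1 in 20. Fth1 stood at 16913 CPM in the naive library of mouse 2, against 12267 to 12714 CPM in the other 3 naive libraries. Ireb2 stood at 71.9 CPM in the same library, against 98.8 to 103 CPM. Steap3 stood at 95.6 CPM in the IL-4/IL-13 library of mouse 4, against 85.6 to 86.2 CPM. The first 2 come from the library that stood apart over all genes.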

How the results depend on the processing

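Of 60 results for single members (10 genes in 6 comparisons), 49 passed the threshold. Across their alternatives, 630 of 660 values kept their direction and their side of the threshold. The replicate block, which uses the pairing by mouse, kept all 60, for example Tfrc after IL-4/IL-13 at 3.35 and Fth1 with Sal003 at 1.21 on the log2 scale. Of the counts of members higher and lower in the 6 comparisons, every one stayed within 1.5 times its main value in every alternative run. Direction turned for Ireb2 alone, which was not past the threshold in either case: IL-4/IL-13 against naive ran from -0.00 (without mouse 2) to 0.15 when each mouse was left out, and tunicamycin against IL-4/IL-13 was 0.00 with no count filter. The cause was not tested.

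The smaller changes of Fth1, Ftl1, Ireb2, Ncoa4 and Steap3 whose calls were lost without single mice are given beside them above. Leaving out only the naive library of mouse 2 lost none of those calls. In set B, 4 mitochondrial genes were lower in place of 2 with upper-quartile normalization or at least 10 counts in every library. In set A, 2 heme recycling and 2 heme synthesis genes were higher in place of 1 each in a fit of only the 2 groups. In set A against set B, 1 mitochondrial gene was lower in place of 2 with no count filter. Of 40 differences of the members between an inhibitor group and naive, 38 kept their call without the naive library of mouse 2, and the other 2 (Slc11a1 with tunicamycin, Ireb2 in set A) passed only without it. Counts of RNA give no protein, iron or export rate, and which oligomycin set held ISRIB cannot be told from the labels.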
